A study of Mus musculus with 18 samples.

Results

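The comparison asked how the transcriptome of microglia from Chd8 knockout (KO) mice differed between males and females, for genes on the autosomes (chromosomes 1 to 19). Its members were the 9 libraries labelled KO, 5 male and 4 female, of 18 libraries in all. The other 9 were labelled wild type (WT), 5 male and 4 female, and served to estimate the spread and to set the KO values beside the same comparison in WT. Each library held polyadenylated RNA of microglia from mouse brain. The labels name the gene state as KO or WT only, and every title also carries the tag HX, whose meaning they do not give. The number of altered Chd8 copies, the cells that carried the change, the allele, the age and the strain are not given in the labels. Nothing in them says whether the libraries came from separate animals, so p-values measure the spread between these libraries.

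Microglia live in the brain from early development as its own macrophages, where they survey the tissue, clear debris and answer injury with cytokines. They are told apart from blood-derived monocytes and neutrophils by their origin and by genes such as P2ry12, Tmem119 and Sall1. CHD8 protein moves nucleosomes, and damaging changes in its gene are tied to autism in people. RNA was counted at its 3' ends with a bulk form of MARS-seq, in which each captured molecule carries a unique molecular identifier (UMI), so that copies made during amplification can be collapsed. The number of sequenced reads per UMI then tells how often each captured molecule was read.

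Values per library are given below in the order of replicates 1, 7, 16 and 33 for female KO and 6, 9, 17, 36 and 40 for male KO. The total UMI count was 1919717, 3117474, 3433078 and 435838 in female KO and 2704944, 2022957, 3231158, 4549562 and 9149144 in male KO. Reads per UMI were 3.11, 3.04, 1.84 and 5.52 in female KO and 1.84, 2.94, 1.85, 1.85 and 1.89 in male KO. Across the series these values fell into 3 separate ranges, below 2.5, between 2.5 and 4, and above 4. Of the male libraries 4 of 5 lay in the lowest range, while 3 of 4 female libraries lay above it, so that sex and range were largely, but not fully, aligned. Female replicate 16 shared the lowest range with the males, and male replicate 9 shared the middle range with female replicates 1 and 7. The mean number of reads per UMI was 2.08 ± 0.48 (SD, n = 5) in males and 3.38 ± 1.54 (n = 4) in females (exact two-sided permutation test, p = 0.0952, adjusted p = 0.206 over 3 library properties). Total UMI count (exact permutation test, p = 0.206) and the number of detected genes (exact permutation test, p = 0.190) did not pass either. With 5 and 4 libraries this exact test can reach p = 0.0159 at the lowest.

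The sex labels were checked with sex-linked transcripts. Xist, the RNA that coats the inactive X chromosome, was at 75.5, 40.4, 71.7 and 22.9 CPM (counts scaled to 1000000 per library) in female KO and at most 0.88 CPM in male KO. The summed level of 4 Y-linked genes was 23.3 to 50.8 CPM in male KO and 0.96 to 2.08 CPM in female replicates 1, 7 and 16. Female replicate 33, the shallowest library, had both, with 9 UMIs on the Y-linked genes (20.6 CPM). Its label and its transcripts were therefore not in full accord, and the total counts, the calls of the main gene lists and several named genes are given also without it.

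Transcripts of neurons, astrocytes and oligodendrocytes were present in every library at different levels. Over 55 neural markers, the summed level was 531, 399, 225 and 473 CPM in female KO and 1556, 2108, 1306, 490 and 588 CPM in male KO. Male replicates 6, 9 and 17 stood well above the rest, while male replicates 36 and 40 lay close to female replicates 1 and 33. These 55 were what remained of the marker lists after 7 genes with high levels in these microglia (among them Cst3, which alone made 98.2% of the astrocyte sum) were set aside once their levels had been seen.

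**Figure D1:**
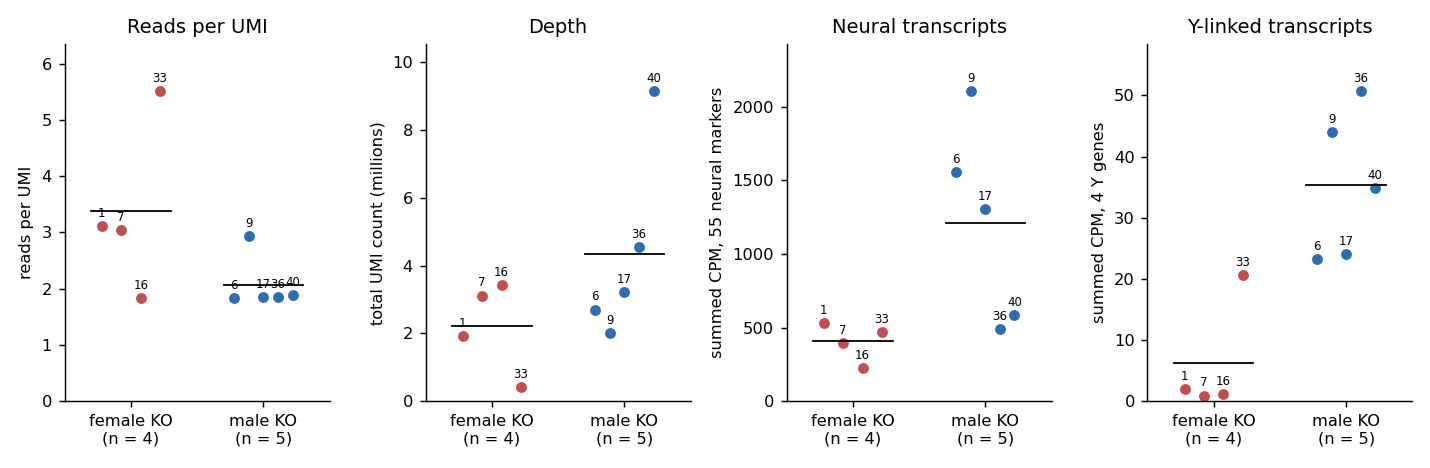
Each point is 1 KO library, labelled with its replicate number, and the bar is the group mean. The panels show reads per UMI, total UMI count, the summed CPM of 55 neural markers and the summed CPM of 4 Y-linked genes. Female replicate 16 (1.84 reads per UMI) sits with the males in the left panel, male replicates 6, 9 and 17 hold the most neural transcripts (1306 to 2108 CPM), and female replicate 33 (20.6 CPM) has Y-linked transcripts.

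The labelled cell type was borne out by its markers. The complement component C1qa was at 10460 to 15210 CPM in female KO and 11250 to 15650 CPM in male KO. P2ry12, the purinergic receptor of homeostatic microglia, was at 914 to 2528 CPM and 1627 to 2475 CPM, and Tmem119, a microglial membrane protein, at 3277 to 6242 CPM and 3147 to 4318 CPM. None of these 3 passed between the sexes (edgeR adjusted p = 0.579 for C1qa, 0.332 for P2ry12 and 0.598 for Tmem119).

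Chd8 itself (ENSMUSG00000053754, chromosome 14, 52198151 to 52257780, minus strand, GRCm38) was at 117, 121, 116 and 139 CPM in female KO and 97.3, 116.5, 96.4, 102 and 109 CPM in male KO. Male replicate 9 lay just above female replicate 16. The male level against the female level, as a log2 fold change, was -0.22 ± 0.11 (SE) and did not pass (edgeR, quasi-likelihood, with Benjamini-Hochberg adjustment over all tested genes, adjusted p = 0.237). Counts at the 3' end can come from a gene altered elsewhere, so this level does not check the KO label. Of the 9 tested CHD remodelers, Chd8 included, 0 passed in either direction, where 6.87% of all autosomal genes did. With so few genes at that share, this count does not set the family apart.

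Between male and female KO, 729 of 10616 tested autosomal genes passed (6.87%; edgeR adjusted p under 0.05, with no minimum fold). Of these, 440 were lower in males (4.14%) with a median log2 fold change of -1.01, and 289 were higher (2.72%) with a median of 0.86. At least 2-fold differences made up 223 of the lower and 118 of the higher genes, and at least 4-fold differences 67 and 21. The median over all autosomal genes tested was -0.02. Genes lower in males included calprotectin subunits and other genes of neutrophils and monocytes, chemokines, interleukin 1 genes and several ribosomal proteins. Genes higher in males included some heat shock chaperones, some immediate early genes and genes of astrocytes, neurons and myelin.

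How many genes passed depended strongly on which libraries entered. Without female replicate 16 the counts were 849 higher and 845 lower, and without female replicate 7 they were 39 and 148. Without female replicate 33 they were 199 and 388. Without male replicates 6, 9 and 17 together they were 23 and 69. For each library in turn, the genes that passed without it were used to ask where the left-out library lay on a scale from 0 (mean of the other males) to 1 (mean of the other females). Female replicates 1, 7 and 33 had median positions of 0.96, 1.01 and 1.04. For replicate 33 the 25th and 75th percentiles were far apart, at 0.50 and 1.78. Over all tested autosomal genes this library stood apart from both sexes. Its Spearman correlation with each other KO library was 0.861 to 0.903, against at least 0.937 between any other KO libraries. Female replicate 16 had a median position of 0.18, and for 1318 of 1670 genes (78.9%) it lay nearer to the males. The males lay between -0.02 and 0.20. Male replicate 9, the male of the middle reads-per-UMI range, had a median of 0.19 and lay nearer to the other males for 79.9% of 647 genes.

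**Figure D2:**
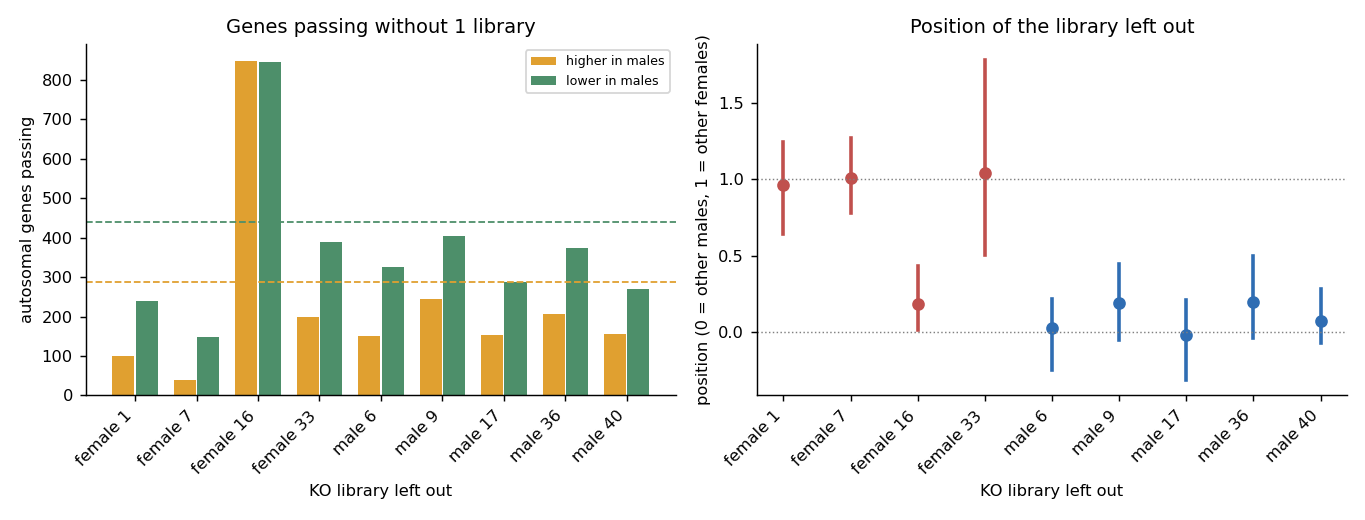
Left, bars give the number of autosomal genes that passed higher (orange) or lower (green) in males when the KO library on the x axis was left out, and dashed lines give the counts with all libraries (289 and 440). Right, points give the median position of the left-out library over the genes that passed without it, with lines from the 25th to the 75th percentile; 0 is the mean of the other males and 1 that of the other females. Female replicate 16 lies at 0.18, near the males, and the counts rise to 849 and 845 without it.

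Among the largest falls in males, Trim44 and Hacd4 were low in all 5 male libraries and kept their call in each of 33 alternative fits, 2 of which compared a single library of one sex with the other. Trim44 (ENSMUSG00000027189, chromosome 2, 102300119 to 102407828, minus strand), a member of the tripartite motif family, was at 37.1, 47.3, 24.1 and 23.2 CPM in female KO and 2.55, 9.96, 2.15, 6.54 and 3.86 CPM in male KO. Every female library, replicate 16 included, lay above every male library. Its log2 fold change was -2.85 ± 0.32, 7.21-fold lower (edgeR adjusted p = 1.85e-05, 1.11e-19 to 0.0169 over the 33 alternatives).

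Hacd4 (ENSMUSG00000028497, chromosome 4, 88396144 to 88438928, minus strand), a dehydratase of very long chain fatty acid synthesis, was at 22.7, 26.1, 16.8 and 12.9 CPM in female KO and 2.55, 3.98, 2.15, 5.06 and 2.13 CPM in male KO, again without overlap. It was 6.63-fold lower in males (log2 fold change -2.73 ± 0.29, edgeR adjusted p = 1.18e-05, at most 0.0399 over the alternatives). Trim44 and Hacd4 were 2 of the 91 named genes that passed, and no other of these passed in every alternative. Pfdn4, a subunit of the prefoldin chaperone complex, was at 23.7, 28.2, 7.85 and 15.4 CPM in females and 1.46 to 4.98 CPM in males. Its log2 fold change of -2.73 ± 0.37 (edgeR adjusted p = 0.000225) held in 31 of 32 alternatives.

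Other large falls had low counts in males and a lower value in female replicate 16 than in the other females. Prdx1, a peroxiredoxin that reduces hydrogen peroxide, was at 28.8, 24.3, 3.08 and 36.0 CPM in females and 0.61 to 3.80 CPM in males, where replicate 16 lay inside the male range (log2 fold change -3.48 ± 0.64, edgeR adjusted p = 0.00283). Nop10, a protein of box H/ACA ribonucleoprotein particles, was at 34.0, 27.3, 7.01 and 12.9 CPM in females and 0.92 to 8.96 CPM in males (-2.65 ± 0.49, edgeR adjusted p = 0.00287). Fgl2, a fibrinogen-like protein of immune cells, was at 16.5, 30.1, 6.45 and 28.3 CPM and 0.31 to 6.33 CPM (-2.55 ± 0.45, edgeR adjusted p = 0.00209). The immunoglobulin alpha constant gene Igha, a product of plasma cells, had the largest fall (-5.44 ± 1.203, edgeR adjusted p = 0.0097). It rested on female replicate 16, at 200 CPM against 2.58 to 25.7 CPM in the other females. Leaving that library out gave -1.97 (edgeR adjusted p = 0.349), and leaving out male replicate 9, at 6.97 CPM against at most 1.09 CPM in the other males, gave -6.23.

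Some markers of neutrophils and monocytes were lower in males, 5 of 15 and 5 of 14 tested (4.14% of all autosomal genes were lower). S100a8 (chromosome 3, 90668978 to 90670035, plus strand), a subunit of calprotectin, was at 106, 393, 87.2 and 2030 CPM in female KO and 12.4, 68.7, 12.6, 47.9 and 35.6 CPM in male KO. All females lay above all males, and female replicate 33 lay far above the other females. The log2 difference was -4.13 ± 0.82 (edgeR adjusted p = 0.00492), and without replicate 33 it was -2.49 (edgeR adjusted p = 0.0284). Its partner S100a9 was at 394.5, 906, 289 and 2416 CPM in females and 43.0 to 168 CPM in males (-3.17 ± 0.64, edgeR adjusted p = 0.00567; -2.29 without replicate 33, edgeR adjusted p = 0.0254). The neutrophil genes Retnlg, which encodes a resistin-like protein, and Mmp8, a collagenase, fell as well (-2.57 ± 0.60 and -2.98 ± 0.73). Neither passed without female replicate 7 (edgeR adjusted p = 0.0669 and 0.105), nor Mmp8 without male replicate 40 (edgeR adjusted p = 0.0613).

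Ccr2, the chemokine receptor that brings monocytes out of the marrow, was at 18.5, 19.3, 14.0 and 7.72 CPM in female KO and 2.92, 6.97, 2.46, 4.01 and 2.23 CPM in male KO. The groups did not overlap, and it was 4.74-fold lower in males (-2.24 ± 0.44, edgeR adjusted p = 0.00438). Plac8, a small protein of monocytes, was at 15.97, 18.4, 8.41 and 2.57 CPM in females and 0, 0.50, 0.31, 3.59 and 0.61 CPM in males. Male replicate 36 lay above female replicate 33, and without that male library the log2 fold change moved from -3.48 ± 0.60 (edgeR adjusted p = 0.00187) to -4.76. Clec12a, an inhibitory C-type lectin of myeloid cells, was at 14.9, 27.02, 12.1 and 15.4 CPM in females and 0.92 to 6.33 CPM in males, the highest again replicate 36 (-2.77 ± 0.42, edgeR adjusted p = 0.00078; -3.53 without that library).

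No tested neutrophil or monocyte marker was higher, and the median log2 fold change was -1.66 for neutrophils and -1.17 for monocytes, against -0.02 for all autosomal genes. Of the 15 tested markers of the macrophages at the brain's borders, 1 (Clec12a) was lower and 0 were higher, with a median of -0.26. The summed level of the neutrophil list was 1717 to 6099 CPM in female KO (mean 3209) and 1073 to 1356 CPM in male KO (mean 1163). The receptor gene Csf3r, at 711 ± 65.4 CPM in females (n = 4) and 669 ± 30.6 CPM in males (n = 5), supplied 33.6% over all KO libraries. It made a larger share of the sum in males than in females. The monocyte list summed to 192 to 381 CPM in females and 79.8 to 174 CPM in males. None of the 16 markers of either list was at 0 in all KO libraries. In bulk RNA, fewer cells of a type and less RNA per cell cannot be told apart. Without female replicate 33 the calls were 4 of 15 neutrophil markers (median -1.199) and 5 of 15 monocyte markers (median -0.98). Without male replicates 6, 9 and 17 they were 0 of 16 (median -1.995) and 1 of 15 (median -1.46).

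Genes of inflammatory signalling were also among those lower in males. The cytokine Il1b (chromosome 2, 129364570 to 129371139, minus strand) was at 29.9, 38.7, 39.5 and 51.5 CPM in female KO and 13.9, 13.4, 15.04, 15.8 and 15.8 CPM in male KO. The males lay close together and the females were more spread, and the lowest female lay well above the highest male. It was 2.55-fold lower in males (-1.35 ± 0.23, edgeR adjusted p = 0.00163), with leave-one-library-out values between -1.45 and -1.27. Its antagonist Il1rn was at 4.63, 14.4, 7.57 and 18.01 CPM in females and 0.36 to 2.32 CPM in males (-2.59 ± 0.44, edgeR adjusted p = 0.00163). The neutrophil-attracting chemokine Cxcl2 was at 6.18 to 14.1 CPM and 0.50 to 3.07 CPM (-2.18 ± 0.38, edgeR adjusted p = 0.00187). The monocyte-attracting chemokine Ccl12 was at 136 to 232 CPM and 74.9 to 106 CPM (-0.99 ± 0.18, edgeR adjusted p = 0.00225). None of these 3 overlapped between the sexes, as held for 63 of the 91 named genes that passed. That share was not counted over all tested genes. Il1b did not pass without male replicates 6, 9 and 17 (-1.25, edgeR adjusted p = 0.0531). Of the 32 tested cytokines and chemokines, 6 were lower and 0 higher, against 4.14% of all autosomal genes lower, with a median of -0.20. Without female replicate 33, 5 were lower, and without the 3 male libraries 3 were. A weaker fall was that of Tgfb1, the cytokine that maintains microglial identity (-0.71 ± 0.19). Tgfb1 did not pass when any of 7 single KO libraries was left out, among them female replicate 33 (edgeR adjusted p = 0.0821).

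Antigen presentation and interferon genes moved in the same direction where they passed. B2m, the light chain of class I molecules, was at 3161, 4339, 3468 and 2923 CPM in female KO and 1838, 1454, 1756, 1892 and 1726 CPM in male KO. The lowest female lay well above the highest male, and the log2 difference was -1.004 ± 0.18 (edgeR adjusted p = 0.00235). The costimulatory ligand Cd86 was at 114, 164, 99.3 and 48.9 CPM in females and 28.1 to 61.0 CPM in males (-1.27 ± 0.27, edgeR adjusted p = 0.00704), with overlap at female replicate 33, and did not pass without female replicate 7 (-0.995, edgeR adjusted p = 0.0664). The class II invariant chain Cd74 was 2.04-fold lower (-1.03 ± 0.25, edgeR adjusted p = 0.0154), and did not pass without replicate 33, which held 2393 CPM (-0.62, edgeR adjusted p = 0.0659). B2m did not pass without male replicates 6, 9 and 17 (-0.92, edgeR adjusted p = 0.0933). Of 29 tested antigen presentation genes 4 were lower (4.14% of all autosomal genes) and 0 higher, with a median of -0.24. The count of lower genes was 3 without female replicate 33 and 0 without the 3 male libraries.

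Of 45 tested type I interferon response genes, 5 were lower in males and 0 higher, against 4.14% of all autosomal genes lower, with a median of -0.33. The count was 5 of 46 without female replicate 33 and 1 of 47 without male replicates 6, 9 and 17. Ifitm3, which blocks viral entry, was at 111, 89.3, 52.4 and 203 CPM in females and 21.7 to 58.8 CPM in males (-1.47 ± 0.31, edgeR adjusted p = 0.00704). Eif2ak2, the double-stranded RNA sensor PKR, was at 45.8 to 90.1 CPM and 27.9 to 36.8 CPM (-0.81 ± 0.18, edgeR adjusted p = 0.00845). The former overlapped between the sexes at female replicate 16 and the latter did not. Eif2ak2 did not pass without female replicate 7 (-0.75, edgeR adjusted p = 0.0565). Slfn5, of the Schlafen family, fell by 2.22 on the log2 scale (SE 0.54), and did not pass without female replicate 1 (edgeR adjusted p = 0.0651) or 7 (edgeR adjusted p = 0.136).

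Several ribosomal protein genes were lower in males, a few of them by a large factor. Rps15a (chromosome 7, 118104372 to 118116188, minus strand), a protein of the small ribosomal subunit, was at 193, 165, 86.7 and 239 CPM in female KO and 5.47, 18.4, 6.45, 43.9 and 20.1 CPM in male KO. The groups were clearly apart, and it was 8.23-fold lower in males (-3.04 ± 0.48, edgeR adjusted p = 0.00105). Rps25, of the same subunit, was at 434, 429.5, 252 and 911 CPM in females and 54.0, 199.6, 31.0, 159 and 126 CPM in males (-2.11 ± 0.41, edgeR adjusted p = 0.00409). Rps24 was at 1094, 1206, 733 and 2722 CPM and 314 to 575 CPM (-1.67 ± 0.28, edgeR adjusted p = 0.00168). These 3 did not overlap between the sexes. That was so for 63 of the 91 named genes that passed, and was not counted over all tested genes.

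Of the 78 tested ribosomal protein genes 13 were lower (4.14% of all autosomal genes) and 0 higher, with a median of -0.34. The count was 33 without female replicate 16 (median -0.45), 5 without female replicate 33 (median -0.10) and 4 without male replicates 6, 9 and 17 (median -0.48). Ribosomal protein genes have many near-identical pseudogenes, and how reads were divided among them is not stated, so their levels are uncertain to that extent. Of the 74 tested nuclear genes of oxidative phosphorylation, 4 were lower and 1 higher, near the shares of all autosomal genes (4.14% and 2.72%). Cox7a2, a subunit of cytochrome c oxidase, was at 137, 113, 95.1 and 136 CPM in females and 42.4 to 74.5 CPM in males, without overlap (-1.02 ± 0.22, edgeR adjusted p = 0.00743). The complex I subunit Ndufa5 fell (-1.14 ± 0.29), with 193.0 CPM in female replicate 33 against 47.1 to 66.0 CPM in the other females, and did not pass without female replicate 7 (edgeR adjusted p = 0.0515). Cytochrome c1, Cyc1, rose (0.44 ± 0.13), but did not pass without any of 7 single KO libraries (edgeR adjusted p up to 0.176, without female replicate 7).

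**Figure D3:**
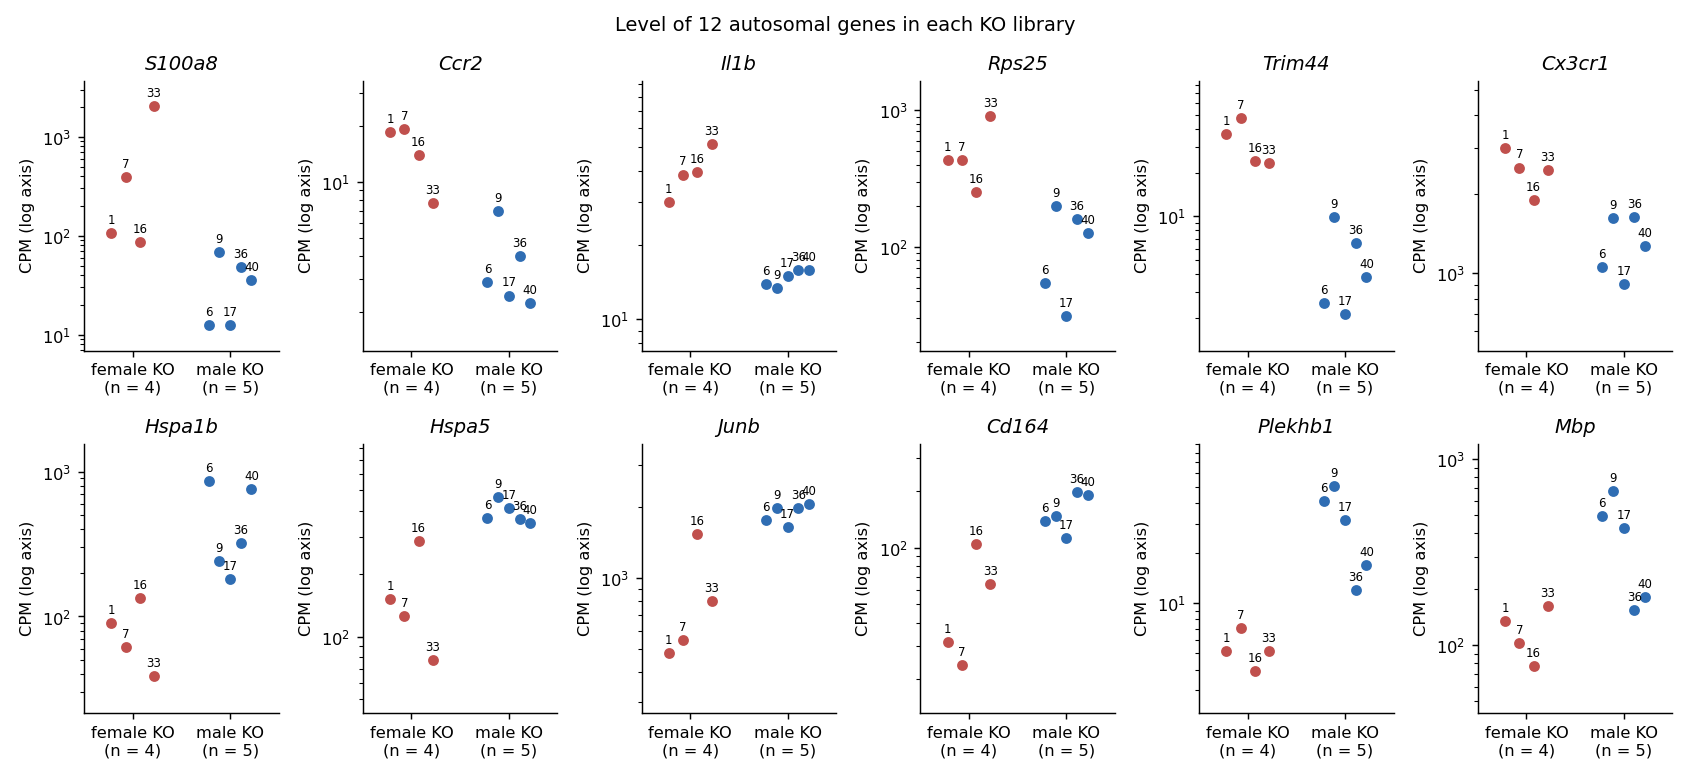
Each point is 1 KO library, labelled with its replicate number, on a logarithmic CPM axis that differs between panels. The upper row shows 6 genes lower in males, and the lower row 6 genes higher in males. The sexes overlap only for Mbp, where male replicates 36 and 40 lie next to the females. For Hspa5, Junb and Cd164, female replicate 16 is the female nearest to the males but lies below them.

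Microglial identity genes were called in both directions. Of 47 tested members 6 were lower and 3 higher, against 4.14% and 2.72% of all autosomal genes, and the median was 0.03. Without female replicate 33, 4 were lower and 3 higher, and without male replicates 6, 9 and 17, 0 were lower and 1 was higher. Cx3cr1, the fractalkine receptor by which microglia sense neurons, was at 3000, 2528, 1894 and 2465 CPM in female KO and 1060, 1629, 911.5, 1631 and 1274 CPM in male KO. The groups did not overlap, and it was 1.90-fold lower in males (-0.93 ± 0.17, edgeR adjusted p = 0.00295). Pros1, a bridging ligand of phagocytic receptors, was at 223, 287, 161 and 167 CPM in females and 92.4 to 124 CPM in males (-0.96 ± 0.17, edgeR adjusted p = 0.00244). Neither passed without male replicates 6, 9 and 17 (edgeR adjusted p = 0.0832 for Cx3cr1 and 0.0852 for Pros1).

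The transcription factor Sall1, which maintains microglial identity, was higher in males, at 175, 282, 345.5 and 144 CPM in female KO and 423, 418, 425.5, 394 and 418 CPM in male KO. The male libraries lay close together while the females were spread widely, and the log2 difference was 0.77 ± 0.18 (edgeR adjusted p = 0.0121; 0.0537 without female replicate 1). The sialomucin Cd164 was at 31.4, 23.6, 105 and 64.3 CPM in females and 139, 148, 113, 199 and 191 CPM in males (1.51 ± 0.36, edgeR adjusted p = 0.0142). It was 2.30 without female replicate 16, and did not pass without female replicate 1 (edgeR adjusted p = 0.0625) or 7 (edgeR adjusted p = 0.0774). Itgam, the integrin CD11b, rose by 0.51 ± 0.13 on the log2 scale, and did not pass without female replicate 1 (edgeR adjusted p = 0.0879). Of 32 tested genes of disease-associated microglia, the state seen around plaques, 2 were lower and 1 was higher, near the shares of all autosomal genes (4.14% and 2.72%), with a median of -0.10. B2m and the small glycoprotein Cd52 (-0.88 ± 0.19) were lower. The adhesion molecule Cadm1 was higher (0.74 ± 0.19), and did not pass without female replicate 1 or 7 (edgeR adjusted p = 0.0927 and 0.107).

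Of the 20 tested heat shock chaperones, 6 were higher in males and 0 lower, against 2.72% of all autosomal genes higher, with a median of 0.33. The count was again 6 without female replicate 33, and 2 without male replicates 6, 9 and 17. Hspa1b (chromosome 17, 34956436 to 34959238, minus strand), an inducible Hsp70, was at 89.6, 61.7, 134 and 38.6 CPM in female KO and 864.5, 240.5, 180.5, 321.5 and 753 CPM in male KO. All males lay above all females, with a wide spread among the males, and the log2 difference was 2.45 ± 0.47 (edgeR adjusted p = 0.00374). Its neighbour Hspa1a rose by 1.88 ± 0.41 (edgeR adjusted p = 0.00849; 0.0524 without female replicate 7). The pair is near-identical in sequence, so how their reads were divided is uncertain.

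Hspa5, the Hsp70 of the endoplasmic reticulum, was at 151, 125, 286 and 77.2 CPM in females and 369, 464, 412, 364 and 348 CPM in males. Female replicate 16 was the nearest to the males, and the difference was 2.34-fold (1.22 ± 0.22, edgeR adjusted p = 0.00258). The cochaperone Dnaja1 was at 24.7, 16.6, 46.5 and 30.9 CPM and 54.6 to 96.99 CPM (1.29 ± 0.25, edgeR adjusted p = 0.00409), and the calcyclin-binding protein Cacybp at 12.9, 17.5, 47.1 and 7.72 CPM and 54.8 to 86.0 CPM (1.39 ± 0.28, edgeR adjusted p = 0.00516; 2.16 without replicate 16). In both, replicate 16 was the highest female and still lay below the lowest male. Hspa8 (-0.48) and Hsp90ab1 (0.03), named here after their values were seen, did not pass. Of 26 tested genes of the integrated stress and unfolded protein responses, 3 were higher (2.72% of all autosomal genes) and 1 was lower, with a median of 0.18. After Hspa5, the luminal cochaperone Dnajb9 rose (0.87 ± 0.17, edgeR adjusted p = 0.00492), at 28.3 to 63.4 CPM in females and 73.2 to 101 CPM in males.

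Immediate early genes respond within minutes to activation and to tissue dissociation. Of the 34 tested members 6 were higher in males and 0 lower, against 2.72% of all autosomal genes higher, with a median of 0.40. The count was 13 without female replicate 16, 3 without female replicate 33 and 0 of 35 without male replicates 6, 9 and 17. Junb, an AP-1 subunit, was at 483.6, 546, 1543 and 798 CPM in female KO and 1767, 1973, 1649, 1985 and 2052 CPM in male KO. Female replicate 16 lay just below the males, and the other females much lower. The log2 difference was 1.16 ± 0.25 (edgeR adjusted p = 0.0093), 1.66 without replicate 16, and it did not pass without female replicate 7 (edgeR adjusted p = 0.0564). Fos was at 267, 285, 583 and 219 CPM in females and 632 to 754 CPM in males (0.98 ± 0.24, edgeR adjusted p = 0.0177). Zfp36l1, which destabilises AU-rich messenger RNAs, was at 82.9, 67.8, 275 and 84.9 CPM and 274 to 385 CPM (1.34 ± 0.28, edgeR adjusted p = 0.00705; 2.13 without replicate 16). Fos no longer passed without female replicate 1 or 7 (edgeR adjusted p = 0.0698 and 0.0848).

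A similar order of libraries was seen in genes outside these lists. Rap1b, a small GTPase of integrin signalling, was at 37.1, 9.52, 208.7 and 41.2 CPM in females and 209.1 to 304 CPM in males. Rab10, a small GTPase of vesicle traffic, was at 4.12, 2.15, 17.9 and 0 CPM in females and 24.4 to 41.9 CPM in males (1.98 ± 0.42, edgeR adjusted p = 0.00779; 3.54 without replicate 16, and edgeR adjusted p = 0.0518 without female replicate 7). The deubiquitinase Otud1 was at 2.58, 4.61, 16.3 and 0 CPM and 22.4 to 32.2 CPM (1.79 ± 0.34, edgeR adjusted p = 0.00339; 2.97 without replicate 16). In each, female replicate 16 was several-fold above the other females. The log2 fold change of Rap1b was 1.69 ± 0.50 with all libraries (edgeR adjusted p = 0.042) and 3.42 without replicate 16, and it did not pass when any of 7 other single KO libraries was left out (edgeR adjusted p from 0.0627 to 0.136).

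**Figure D4:**
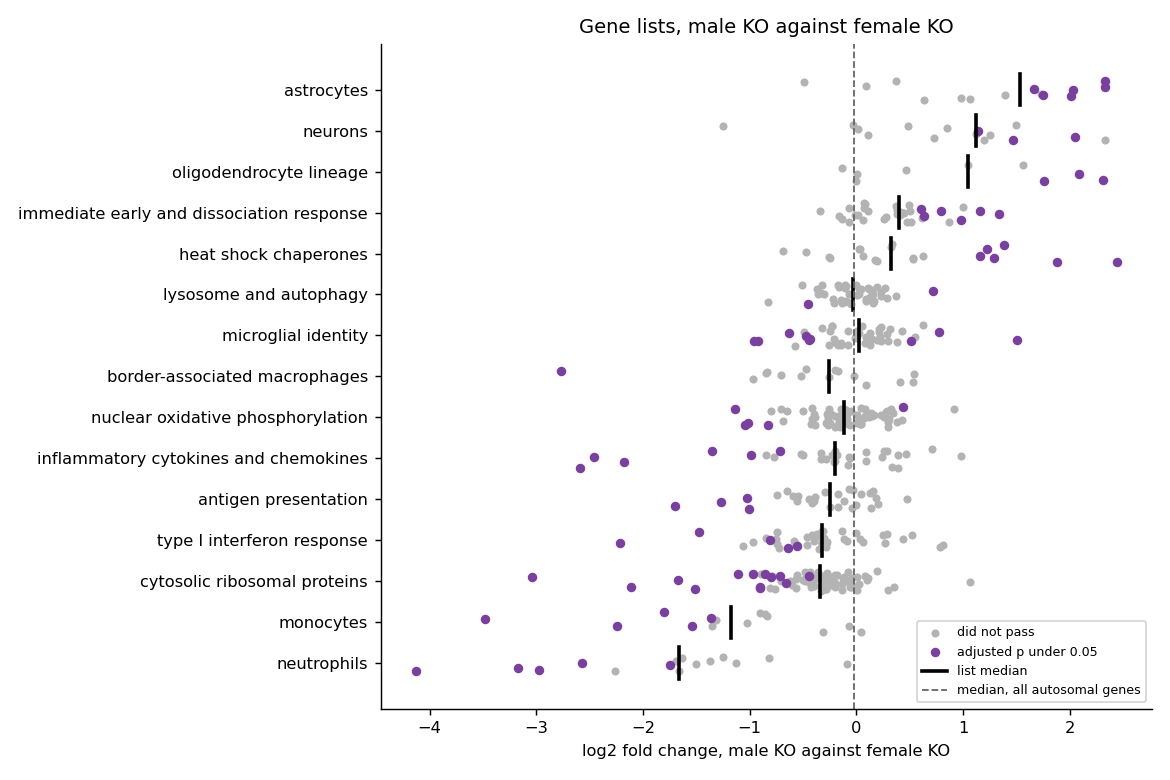
Each point is the log2 fold change of 1 tested gene, male KO against female KO, for 15 of the gene lists. Purple points passed (edgeR adjusted p under 0.05), grey points did not, black bars are list medians and the dashed line is the median of all autosomal genes (-0.02). The neutrophil and monocyte lists have medians of -1.66 and -1.17, and the neural lists have medians above 1.

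Some genes of astrocytes, neurons and myelin were higher in males, and several of those named here also enter the summed neural markers. Plekhb1 (chromosome 7, 100642892 to 100662414, minus strand), a membrane-associated protein, was at 5.15, 7.06, 3.93 and 5.15 CPM in female KO and 41.2, 50.3, 31.6, 12.02 and 16.9 CPM in male KO. All males lay above all females, and replicates 36 and 40 were the lowest males. It was 5.44-fold higher (2.44 ± 0.44, edgeR adjusted p = 0.00235), with 1.45 without male replicates 6, 9 and 17 (edgeR adjusted p = 0.106).

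Mbp, a major protein of myelin, was at 134, 103, 77.4 and 162 CPM in females and 498, 675, 426, 156 and 183 CPM in males. Male replicates 36 and 40 lay at the level of female replicate 33, the others well above. The log2 difference was 1.76 ± 0.37 (edgeR adjusted p = 0.00704), and 0.60 without male replicates 6, 9 and 17 (edgeR adjusted p = 0.321). The astrocyte genes Sparcl1 (2.33 ± 0.55), Cpe (2.33 ± 0.49) and Slc1a2, the main glutamate transporter (2.01 ± 0.55), the oligodendrocyte gene Mobp (2.09 ± 0.53) and the neuronal kinesin Kif5a (2.05 ± 0.57) were likewise highest in male replicates 6, 9 and 17 and lower in male replicates 36 and 40. Without the first 3 of these male libraries their values were 0.96, 1.45, 0.33, 0.84 and 0.63, and none passed. Because those 3 libraries held the highest levels, smaller values without them were built into the choice of libraries. Without female replicate 7, Sparcl1 and Mobp did not pass (edgeR adjusted p = 0.0529 and 0.059). Slc1a2 and Kif5a did not pass without female replicate 7 or 16 or without male replicate 6, 9 or 17 alone (edgeR adjusted p from 0.0515 to 0.111), nor Slc1a2 without female replicate 33 (edgeR adjusted p = 0.0555).

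Of the tested markers, 6 of 14 astrocyte, 3 of 15 neuronal and 3 of 9 oligodendrocyte lineage genes were higher and 0 were lower, against 2.72% of autosomal genes, with medians of 1.53, 1.12 and 1.05. Without male replicates 6, 9 and 17, 0 of 14, 0 of 14 and 0 of 8 passed, and the medians were 0.36, 0.13 and 0.18. Without female replicate 33, 5 of 14 astrocyte, 1 of 16 neuronal and 3 of 9 oligodendrocyte lineage genes passed. In all KO libraries the oligodendrocyte lineage markers Pdgfra and Ugt8a were at 0. The lists for erythroid cells (0 of 5 passed), choroid plexus and ependyma (0 of 3), endothelial and mural cells (0 of 3) and lymphocytes (0 of 4) had no call. Over all autosomal genes, 6.87% were called in either direction. Whether the neural transcripts of each library had a part in other differences was not tested as a cause. With the sum of all neural markers as a covariate, as planned, 231 genes were higher and 348 lower, and 510 of the 729 calls were shared. With the trimmed sum, added after seeing the data, 405 genes were higher and 530 lower, and 508 of the 729 calls were shared. The counts fell with the first covariate and rose with the second, but the 2 are not alike. The first sum was carried by the astrocyte list, of which Cst3, high in these microglia, made 98.2%. Its mean was lower in male KO (36806 against 47094 CPM in female KO), while that of the trimmed sum was higher (1209 against 407 CPM). The first fit therefore did not adjust for neural transcripts as such.

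Cell cycle genes moved in both directions. Pcna, the replication clamp, was at 15.4, 27.02, 43.2 and 20.6 CPM in female KO and 61.98, 66.2, 61.4, 58.9 and 59.6 CPM in male KO, without overlap (1.10 ± 0.24, edgeR adjusted p = 0.00848). DNA ligase 1, Lig1, went the other way, at 35.5, 41.8, 40.7 and 48.9 CPM in females and 18.96 to 27.4 CPM in males (-0.77 ± 0.14, edgeR adjusted p = 0.00276). Cyclin A2, Ccna2 (-1.69 ± 0.40), and the survivin gene Birc5 (-1.06 ± 0.28) were lower, but neither passed without female replicate 7 (edgeR adjusted p = 0.118 and 0.0901). Ccna2 also did not pass without female replicate 1 (edgeR adjusted p = 0.0572), nor Birc5 without female replicate 16 (edgeR adjusted p = 0.0732) or male replicate 17 or 40 (edgeR adjusted p = 0.0525 and 0.0681). Of 30 tested proliferation genes 1 was higher and 3 lower, against 2.72% and 4.14% of all autosomal genes, with a median of -0.33. Among 30 p53 targets, cyclin G2, Ccng2, was higher (1.24 ± 0.24; 1.83 without female replicate 16), and 2 genes were lower, with a list median of -0.01. The stress gene Gadd45b was at 16.0 to 38.6 CPM in females and 8.96 to 13.9 CPM in males (-1.01 ± 0.21, edgeR adjusted p = 0.00621).

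The remaining lists had between 0 and 3 calls each, against 6.87% of all autosomal genes called in either direction. Of 14 tested genes for sex hormone receptors and steroid metabolism 0 passed. Of 13 autosomal relatives of X-Y gene pairs, the thymosin Tmsb10 (-0.88 ± 0.26) and the histone demethylase Kdm5a (-0.72 ± 0.21) were lower, and each of them failed the threshold in 8 of the 9 omissions of a single KO library (edgeR adjusted p up to 0.158 and 0.134). Calls were 0 of 20 for cholesterol synthesis and uptake, 1 of 22 for glycolysis (Aldoc, which is also an astrocyte marker), 2 of 44 for lysosome and autophagy, 3 of 26 for complement and phagocytosis, 2 of 21 for glucocorticoid response and 2 of 21 for TGF-beta signalling, whose median of 0.10 was opposite in sign to both its calls, Tgfb1 and the integrin Itgav.

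The same comparison in WT libraries gave 1814 of 10616 genes (17.1%; 6.9% higher and 10.2% lower in males). In WT, 3 of 4 female libraries lay in the highest reads-per-UMI range and no male library did. Of the 729 KO calls, 685 had the same sign in WT and 414 were called in the same direction in both genotypes, out of 417 called in both (56.8% of the KO calls and 22.8% of the WT calls). The share with the same sign was not counted over all tested genes. The difference of the sex effects (KO minus WT) was tested itself, and 25 autosomal genes passed (0.235%; 20 higher, 0.188%, and 5 lower, 0.0471%), with 923 at an unadjusted p under 0.05. Without female KO replicate 33, 45 genes passed. All 25 passed in WT and 5 of them in KO. Of the 312 genes that passed in KO and not in WT, 0 were among the 25.

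The genes with the lowest p for this difference had a large sex effect in WT and a small one in KO. Cbr2, a carbonyl reductase found in macrophages at the brain's borders, was at 40.7, 51.0, 49.9 and 43.7 CPM in female KO and 50.0, 42.8, 40.5, 45.1 and 31.8 CPM in male KO. The KO groups overlapped, whereas WT males were at 7.44 ± 2.11 CPM (SD, n = 5) and WT females at 64.7 ± 27.1 CPM (n = 4). The sex effect was -0.17 ± 0.23 in KO and -3.03 ± 0.27 in WT, a difference of 2.86 ± 0.36 (edgeR adjusted p = 0.000835), which passed without each single library. The chemokine Pf4 (1.94 ± 0.32), the lipid carrier Apoe (1.37 ± 0.24), the phospholipase Pla2g7 (2.82 ± 0.49) and the receptor Axl (1.39 ± 0.24) differed in the same way (edgeR adjusted p = 0.0147 for each). These last 4 did not pass without female WT replicate 30 (edgeR adjusted p = 0.056 for each), where 2 genes passed in all. None of the 5 passed between the sexes in KO, with edgeR adjusted p from 0.193 to 0.702. In the other direction, the linker histone gene Hist1h1c was at 101 ± 17.9 and 89.7 ± 11.2 CPM in female and male KO and at 76.5 ± 19.4 and 215 ± 41.5 CPM in female and male WT, a difference of -1.66 ± 0.24 (edgeR adjusted p = 0.00408). The AP-1 subunit Jun rose less in KO (0.63 ± 0.17) than in WT (1.84 ± 0.18), a difference of -1.21 (edgeR adjusted p = 0.0427). Jun lost this call without female KO replicate 16 (edgeR adjusted p = 0.0729) and in 12 other single-library omissions (edgeR adjusted p up to 0.0933).

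**Figure D5:**
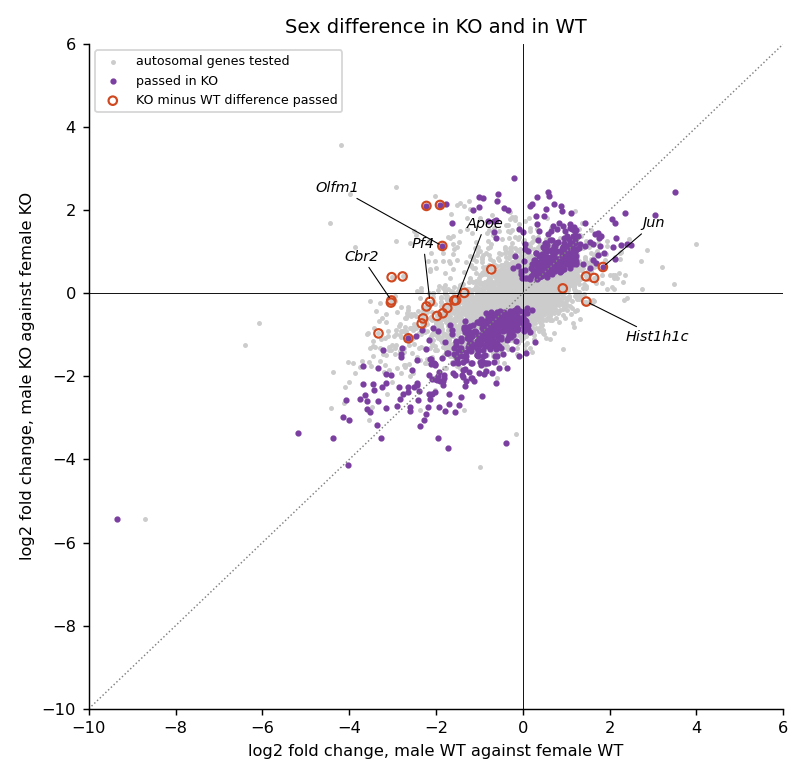
Each point is 1 tested autosomal gene, with the log2 fold change of male against female in WT on the x axis and in KO on the y axis. Purple points passed in KO, orange-red circles passed the test of the difference, and the dotted line marks equal values. Most purple points share their sign between genotypes (685 of 729, a share not counted over all tested genes). Circled genes such as Cbr2 lie near 0 in KO and near -3 in WT.

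Because sex and reads per UMI were aligned, the comparison was repeated with the range as a covariate and inside single ranges. With the range as a covariate, 137 genes were higher and 166 lower, of which 272 were called with all libraries and no covariate (37.3% of those 729). Inside the middle range, with 2 female and 1 male KO library, 215 were higher and 112 lower, and 189 of the 729 calls were shared (25.9%). Inside the lowest range, with female replicate 16 alone against 4 males, 1 was higher and 7 lower, of which 5 were shared. In both ranges the lone library of one sex is assumed to vary like the other groups, so these counts compare that library with the others. The sign was the same for 725 of 727 tested calls in the middle range and 701 of 711 in the lowest, although the libraries inside each range had also entered the fit of all libraries.

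For single genes, picked here after their values were seen, the log2 fold changes of these fits are given without a test, since each rests on 1 library of a sex. Trim44 was at -2.08 in the middle range and -2.61 in the lowest, Hacd4 at -2.59 and -2.51, Il1b at -1.35 and -1.39, and B2m at -1.35 and -0.96. Junb was at 1.95 in the middle range and 0.26 in the lowest, Cd164 at 2.47 and 0.61, and Hspa5 at 1.78 and 0.37. The last 3 values in the lowest range were several-fold smaller on the log2 scale. The ribosomal list had a median of -0.09 in the middle range, 0.08 in the lowest and -0.05 with the range as a covariate, and the immediate early list 0.54, 0.03 and 0.39. With 1 library of a sex in each range, a difference between ranges cannot be told apart from a difference between those single libraries.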

How the data were processed

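RNA of brain microglia was measured by bulk MARS-seq, with 30 ng of RNA per library, per the labels. The authors deposited 2 tables of raw counts per gene, 1 of reads and 1 corrected for UMIs, made with cutadapt, STAR and HTSeq on mm10, per the submitters' processing notes. The sources used here give no versions, annotation release, strand setting or UMI method. Among the 34 columns of each file, 16 belong to no library described here and were not used. Of 55414 gene IDs, 52133 matched a symbol in GENCODE M21 (GRCm38), and these held at least 99.92% of the UMIs of each library. Coordinates come from that annotation.

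UMI-corrected counts of all 18 libraries were fitted with edgeR 4.0.16 (limma 3.58.1, R 4.3.3; filterByExpr by group, TMM, quasi-likelihood, 1 mean per group), with Benjamini-Hochberg adjustment over all 10948 tested genes, of which the 10616 autosomal ones are reported. A gene passed at an adjusted p under 0.05. Fold changes are male against female. The SE given with a log2 fold change is its absolute value divided by the square root of the quasi-likelihood F statistic. CPM of single genes used TMM-scaled totals, and marker sums and sex-linked genes used library totals. For the position of a left-out library, log2 CPM with a pseudocount of 1 was used. The common biological coefficient of variation was 17.8%. Total counts ranged from 435838 to 9149144 UMIs in KO. Replicate pairs differed by more than sampling noise (chi-square per degree of freedom 2.92 to 14.0 over 32 pairs), so every library was counted once. On simulated data for male against female KO (10732 genes, 200 changed), 28.4% of 1.5-fold, 86.6% of 2-fold and 98.5% of 4-fold changes were recovered, with 3.4% false calls. The simulation drew each gene on its own from the fitted group means and changed only genes with a mean log2 CPM above 3. It held no reads-per-UMI ranges, no differences in neural transcripts within a group and no deviating library. Its rates therefore do not give the share of false calls in the real comparison.

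The members, the 31 gene lists and the tests were chosen with earlier results of these data known. Genes named were Chd8, the 15 largest rises and falls among passing genes whose mean log2 CPM was 3 or more (no predicted genes or pseudogenes), up to 4 passing members of each list by lowest p and up to 5 genes per direction for the KO minus WT difference. Microglial markers and Csf3r, Hspa8 and Hsp90ab1 are named outside this rule. Of the list symbols, 3 were not found and 18 were not autosomal. Alternatives, run with DESeq2 1.42.0 and sva 3.50.0 among others, are described at the end.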

Additional observations from a re-analysis of the deposited data

Results flagged for a closer look

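A library was marked when its gap to the nearest other of its group exceeded Dixon's 95% critical value for that group size, which chance does in about 5% of groups. Of 218 groups of values tested, 13 were marked. Male replicate 9 was marked for 2.94 reads per UMI against 1.84 to 1.89 in the other males, and female replicate 33 for 20.6 CPM on Y-linked genes.

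Female replicate 16 was marked as the highest female for Rap1b (208.7 CPM), Zfp36l1 (275 CPM), Cadm1 (135.5 CPM) and Igha (200 CPM). In the first 3 it lay at or close to the male level, and for Igha it lay far from the males. Female replicate 33 was marked as the highest female for S100a8 (2030.0 CPM) and Ndufa5 (193.0 CPM). Among males, replicate 36 was marked as the highest for Plac8 (3.59 CPM) and as the lowest for Sall1 (394 CPM), replicate 9 as the highest for Igha (6.97 CPM) and the lowest for Gadd45b (8.96 CPM), and replicate 6 as the lowest for Tmsb10 (18.2 CPM).

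Sex effects that differed between KO and WT by the test of the difference itself were marked for 11 genes. The difference, KO minus WT on the log2 scale, was 2.86 for Cbr2, 2.99 for Olfm1, 2.82 for Pla2g7, 1.94 for Pf4, 1.39 for Axl and 1.37 for Apoe. In the other direction it was -1.66 for Hist1h1c, -1.27 for Egr1, -1.21 for Jun, -1.05 for Socs3 and -0.80 for Sumo3. The calls of Egr1, Jun, Socs3 and Sumo3 were each lost in at least 12 of 18 single-library omissions. Olfm1, a secreted protein of neurons, was higher in male KO (1.14, edgeR adjusted p = 0.0474) and lower in male WT (-1.86, edgeR adjusted p = 0.00266). Its KO call was lost in 7 of 9 omissions of a single KO library, and the KO value was 0.31 without male replicates 6, 9 and 17 (edgeR adjusted p = 0.642).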

How the results depend on the processing

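Counts for KO are given as higher and lower in males, against 289 and 440. Leaving out 1 library at a time gave 39 to 849 and 148 to 845, for WT 1041 to 2336 (against 1814) and for the KO minus WT difference 2 to 79 (against 25). Counts that moved by over 1.5 times were, for KO, 141 and 202 with log2 reads per UMI as a covariate, 137 and 166 with its range as a covariate, 1 and 7 in the lowest range only, 34 and 184 with KO libraries alone, 85 and 204 with reads in place of UMIs, 152 and 235 thinned to 435838 UMIs, 23 and 69 without male replicates 6, 9 and 17, 471 higher with DESeq2, 660 higher with no filter, 739 higher without female replicates 16 and 33, and 112 lower in the middle range only. For WT they were 145 (log2 reads per UMI), 258 (range), 911 (trimmed neural sum as a covariate), 1133 (reads), 740 (thinned) and 203 (middle range). For the difference they were 14 (log2 reads per UMI), 0 (trimmed neural sum), 78 (DESeq2), 222 (no filter), 10 (reads), 46 (1 surrogate variable), 12 (thinned), 11 (middle range), 1 (without male KO 6, 9 and 17) and 5 (without female KO 16 and 33). The fits inside single ranges, the trimmed neural sum and the joint omission of 16 and 33 were added after seeing the data. KO effects that changed sign were, with the trimmed neural sum, Kif5a -0.090, Slc1a2 -0.36, Aldoc -0.14, Clu -0.035, Camk2a -0.21 and Hist1h1c 0.032. All of these but Hist1h1c are members of that sum, so a covariate that holds them takes up their effects by construction. In the middle range the effects that changed sign were Igha 0.89 and Sumo3 -0.020, and in the lowest Sgk1 -0.087, Pf4 0.023, Pla2g7 0.54 and Egr1 -0.13. Camk2a was -0.0078 without male replicates 6, 9 and 17, Pla2g7 was 0.079 with log2 reads per UMI, 0.15 with the range and 0.012 with reads, and Sumo3 was -0.0040 with reads. Apart from fewer genes or libraries where a fit used fewer, the cause was not tested. Of the 91 named genes that passed in KO, 40 kept their call without each single KO library, 78 without female replicate 33, 20 without male replicates 6, 9 and 17, 58 with the range as a covariate and 57 with reads. No paired analysis was possible because every library has a replicate number of its own. The planned fit of the lowest range with at least 2 libraries per group was not run, since it held 1 female KO and no female WT library. Female replicate 33 was the shallowest KO library, with 435838 UMIs.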
